A study of Mus musculus with 12 samples.

Results

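Meteor, Lncenc1 and Platr28 are 3 annotated long noncoding RNAs (lncRNAs) of mouse embryonic stem cells (ESCs), taken by locus identifier from the 80012 loci counted in the series. They are the loci XLOC_073715 (Meteor, annotated as Platr11), XLOC_018601 (Lncenc1) and XLOC_062775 (Platr28). The 3 were chosen by their measured levels, which are high in ESCs in these same libraries, so their levels and changes are given as a description with no test. RNA was sequenced from 3 groups of 4 libraries each, all made from a single mouse ESC line labelled C57BL/6 in which an EGFP cassette sits at the start of the endogenous Eomes gene. The ESC group was collected at day 0 from cultures with leukemia inhibitory factor on mouse embryonic fibroblast feeders. The Eo+ and Eo- groups were sorted at day 3 from embryoid bodies grown in hanging drops, by the presence or absence of the EGFP that reports Eomes. Since cells were sorted on Eomes, its higher level in Eo+ than in Eo- or ESCs is no finding. The libraries of a group carry the numbers 1, 2, 5 and 6, and p-values measure the spread between libraries of 1 line, since the sources do not tie the numbers to the 4 sets of differentiation that the study describes.

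LncRNAs are transcripts that are usually spliced and polyadenylated like messenger RNAs but are not known to be translated. Some are made from enhancers, stretches of DNA that raise the transcription of a gene nearby, and Meteor is transcribed from such a region beside Eomes, the T-box factor that directs early mesendoderm. The Platr genes were named as pluripotency-associated transcripts of ESCs, a group to which Meteor and Platr28 belong by name and Lncenc1 by its synonym Platr18. Mesendoderm is the common progenitor of mesoderm and endoderm, and ESCs leave pluripotency before they form it.

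The transcripts of the deposited assembly show where each lncRNA lies. Meteor occupied chr9:118384971-118439055 on the minus strand of mm10, with 14 transcripts of 3 to 7 exons over 54.09 kb. Of these, 1 equalled an annotated transcript exon by exon, and 13 carried the start identifier that the annotated transcript has. Lncenc1 occupied chr13:97434970-97516848 on the plus strand, with 18 transcripts of 2 to 10 exons over 81.88 kb, of which 3 equalled annotated transcripts. Platr28 occupied chr7:107213046-107309876 on the plus strand, with 8 transcripts of 1 to 6 exons over 96.83 kb, of which 1 equalled an annotated transcript. The assembled transcripts were mostly longer than the annotated ones, with median lengths of 8752 nt for Meteor, 7360 nt for Lncenc1 and 1749 nt for Platr28.

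**Figure D1:**
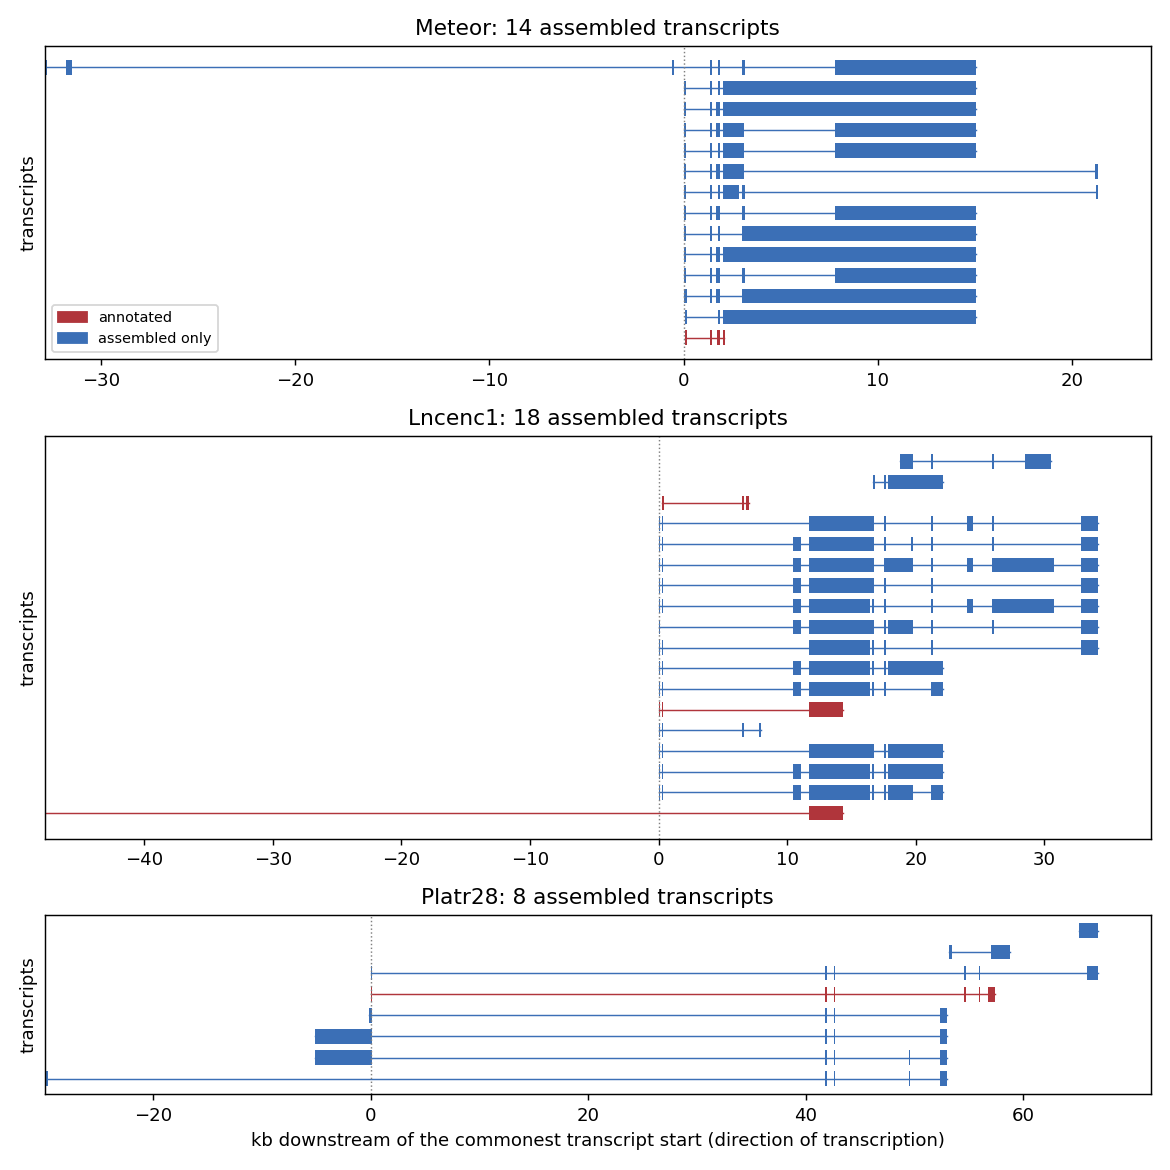
Exons (boxes) and introns (lines) of every assembled transcript of the 3 lncRNAs, placed in kb from the commonest transcript start in the direction of transcription, with annotated transcripts in red and transcripts only in the assembly in blue. Of the Meteor transcripts 13 of 14 began at the commonest start, of the Lncenc1 transcripts 14 of 18, and of the Platr28 transcripts 2 of 8.

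The annotated Meteor transcript, ENSMUST00000182885, has 4 exons and 388 nt, and it is printed whole because it is the annotated core of the locus. The sequences are those of GENCODE M21 on GRCm38, the build called mm10 in the study, read 5′ to 3′ on the transcribed strand. Capitals mark the longest reading frame from ATG to a stop, which holds 54 codons and begins in exon 2.
Meteor exon 1, chr9:118406041-118406099: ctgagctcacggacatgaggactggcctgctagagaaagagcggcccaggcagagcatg
Meteor exon 2, chr9:118404730-118404826: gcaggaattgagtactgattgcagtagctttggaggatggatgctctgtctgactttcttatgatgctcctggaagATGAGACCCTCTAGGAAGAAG
Meteor exon 3, chr9:118404304-118404468: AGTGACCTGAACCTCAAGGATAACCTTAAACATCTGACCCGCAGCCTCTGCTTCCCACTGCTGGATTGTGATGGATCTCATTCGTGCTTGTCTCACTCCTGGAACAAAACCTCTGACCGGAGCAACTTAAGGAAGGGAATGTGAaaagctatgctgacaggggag
Meteor exon 4, chr9:118404097-118404163: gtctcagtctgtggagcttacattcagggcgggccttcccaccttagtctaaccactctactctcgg
Among 9101 annotated lincRNA transcripts the median longest frame was 58 codons, and 45.1% had a shorter frame than Meteor.

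Lncenc1 is shown at its starts, because the reference and the assembly place them differently. The RefSeq start lies at the first base of ENSMUST00000109431, of 2726 nt, and 14 of the 18 assembled transcripts began 47.72 kb or slightly more downstream of it, at chr13:97482686-97482701. ENSMUST00000179324, of 2764 nt, begins there, and its first 2 exons are printed after the RefSeq window of 250 bases before and 50 bases after the start (GRCm38.p6). Capitals in the window mark the 50 bases from the start onward, which equal the first bases of ENSMUST00000109431.
Lncenc1 RefSeq start, chr13:97434720-97435019: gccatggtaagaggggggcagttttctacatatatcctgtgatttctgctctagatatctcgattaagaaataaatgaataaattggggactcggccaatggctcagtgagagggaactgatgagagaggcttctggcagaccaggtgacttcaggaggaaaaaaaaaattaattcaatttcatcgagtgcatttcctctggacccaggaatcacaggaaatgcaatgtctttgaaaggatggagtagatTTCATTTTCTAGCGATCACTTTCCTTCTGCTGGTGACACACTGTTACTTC
Lncenc1 downstream exon 1, chr13:97482701-97482777: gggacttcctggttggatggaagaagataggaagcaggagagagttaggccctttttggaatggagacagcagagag
Lncenc1 downstream exon 2, chr13:97482949-97483032: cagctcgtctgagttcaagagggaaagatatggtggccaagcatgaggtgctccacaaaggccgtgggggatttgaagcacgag
The window held 42.3% G and C, against a median of 52.7% over 32851 RefSeq windows of that length. Searched on both strands, it held 2 matches to CCAAT, which 37.4% of all windows hold, and 0 matches to TATAAA (13.6% of all windows), to the octamer ATGCAAAT (1.74%), to ATTGTT (10.7%), to TCACACCT (1.28%) and to GGGCGG (35.7%). The longest frame of both long annotated transcripts was 149 codons, and 96.7% of the lincRNA transcripts had a shorter one. Coding was not measured.

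The annotated Platr28 transcript, ENSMUST00000133824, has 6 exons and 1294 nt. Its first 4 exons are printed because they hold the start shared with the assembly and, in capitals, the longest reading frame of 57 codons.
Platr28 exon 1, chr7:107243022-107243128: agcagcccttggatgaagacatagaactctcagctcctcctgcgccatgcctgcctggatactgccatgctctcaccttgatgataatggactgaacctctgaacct
Platr28 exon 2, chr7:107284782-107284937: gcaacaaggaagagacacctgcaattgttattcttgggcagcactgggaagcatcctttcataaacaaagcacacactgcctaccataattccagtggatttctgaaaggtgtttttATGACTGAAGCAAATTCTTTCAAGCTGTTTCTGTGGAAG
Platr28 exon 3, chr7:107285613-107285730: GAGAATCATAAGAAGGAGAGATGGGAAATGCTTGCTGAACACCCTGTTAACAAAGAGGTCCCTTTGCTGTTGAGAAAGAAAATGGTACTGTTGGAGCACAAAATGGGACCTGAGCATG
Platr28 exon 4, chr7:107297552-107297745: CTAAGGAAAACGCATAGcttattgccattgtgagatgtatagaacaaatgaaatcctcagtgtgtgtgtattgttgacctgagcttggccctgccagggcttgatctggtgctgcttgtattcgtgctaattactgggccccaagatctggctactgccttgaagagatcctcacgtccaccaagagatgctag
Of the lincRNA transcripts, 48.5% had a shorter frame than Platr28, and G and C made up 43.3% of it, against 51.5% of the annotated Meteor transcript and a median of 46.2% over the lincRNA transcripts.

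Depth was high, with 648413022 to 837308168 counts assigned to loci per library and no group set apart by its totals. These totals exceed the reads per sample that the labels give, and the sources used here do not say whether mates were counted separately, in which case counting intervals and floors would be too narrow. Levels are CPM, counts per 1000000 counts of a library, with library sizes scaled by the trimmed mean of M values (TMM), as mean ± SD over 4 libraries. A locus was tested when its mean FPKM (CPM per kb of exon) exceeded 0.1 in at least 1 group and it was a protein-coding gene (PCG), an annotated lncRNA or a non-annotated lncRNA, which left 17925 loci, 996 of them annotated lncRNAs. Marker genes were read against the labels. All 16 pluripotency factors listed were detected in the ESC libraries, with a summed level of 3784 to 4907 CPM, against 1464 to 1795 CPM in Eo- and 580.3 to 863.5 CPM in Eo+. The 12 mesendoderm factors summed to 2388 to 3778 CPM in Eo+, 287.1 to 597.1 CPM in Eo- and 100.2 to 309.2 CPM in ESCs. These sums include Eomes, the gene of the sort, with means of 527, 137 and 46.5 CPM in the same order. The ESC libraries also held 111.9 to 284.3 CPM of 11 feeder fibroblast markers, against 37.6 to 54.5 CPM in Eo- and 38.0 to 68.9 CPM in Eo+, and 30.7 to 71.7 CPM of 7 markers of 2-cell-like cells, against 0.877 to 2.13 CPM in Eo- and 0.161 to 0.371 CPM in Eo+. All feeder markers but Thy1, Pdgfrb and Fbn1 had their highest mean in ESCs. Thy1 had 14.1, 21.3 and 7.49 CPM in ESCs, Eo- and Eo+, Pdgfrb 6.90, 4.63 and 11.5, and Fbn1 11.8, 8.46 and 14.3. Of 7 visceral endoderm markers the libraries held 3.59 to 4.73 CPM in ESCs, 4.08 to 22.3 in Eo- and 8.76 to 102 in Eo+. Amn alone among them was highest in ESCs, with means of 2.06, 0.765 and 0.664 CPM. None of the feeder or 2-cell-like markers was at 0 in all ESC libraries, and the part of these cells in the levels of the 3 lncRNAs was not tested.

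Meteor had its highest mean in ESCs and its lowest in Eo+. In ESCs its level was 14.6, 19.1, 5.87 and 16.5 CPM in replicates 1, 2, 5 and 6. In Eo- it was 6.60, 8.46, 7.33 and 4.94 CPM, and in Eo+ it was 1.11, 2.23, 1.59 and 2.00 CPM. ESC replicate 5 was the low library and lay among the Eo- libraries, so ESCs and Eo- overlapped, whereas all 4 Eo+ libraries lay below every other library. ESC replicate 5 also had the lowest summed pluripotency factors of the ESC libraries (3784 CPM) and the highest summed mesendoderm factors (309.2 CPM, against 100.2 to 177.8 CPM), and their part in the Meteor level was not tested. The means were 14.01 ± 5.74 CPM in ESCs, 6.83 ± 1.47 in Eo- and 1.73 ± 0.491 in Eo+. The fitted log2 fold change was -2.93 (SE 0.409) for Eo+ vs ESC, -0.93 (SE 0.326) for Eo- vs ESC and -2.004 (SE 0.432) for Eo+ vs Eo-. Without replicate 5 the ESC mean was 16.7 CPM, and leaving out 1 library at a time moved the Eo- vs ESC change between -1.31 and -0.73. In bulk RNA, fewer cells that make a transcript and less of it per cell cannot be told apart.

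Lncenc1, a nuclear lncRNA abundant in naive ESCs, was the highest of the 3. Its level in ESCs was 357, 349, 291 and 365 CPM in replicates 1, 2, 5 and 6. In Eo- it was 92.8, 105, 86.8 and 97.6 CPM, and in Eo+ it was 5.44, 6.95, 6.71 and 6.49 CPM. The 3 groups did not overlap, and replicate 5 was again the lowest ESC library. The means were 340.3 ± 33.9, 95.7 ± 7.88 and 6.40 ± 0.664 CPM in ESCs, Eo- and Eo+, so the ESC mean was 3.56 times the Eo- mean and 53.2 times the Eo+ mean. The log2 fold change was -5.74 (SE 0.131) for Eo+ vs ESC, -1.83 (SE 0.0824) for Eo- vs ESC and -3.91 (SE 0.134) for Eo+ vs Eo-. Lncenc1 alone made up 4.43% to 5.47% of all CPM of the 996 annotated lncRNAs in the ESC libraries, 1.26% to 1.67% in Eo- and 0.0497% to 0.126% in Eo+.

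Platr28 was the lowest of the 3 and the one with the least RNA left after differentiation. Its level in ESCs was 5.66, 4.94, 4.18 and 5.87 CPM in replicates 1, 2, 5 and 6. In Eo- it was 0.321, 0.270, 0.298 and 0.225 CPM. In Eo+ it had 0, 0, 1 and 0 counts. The groups did not overlap, and 3 of 4 Eo+ libraries were at 0, where a count of 0 allows up to 0.00354 to 0.00467 CPM in a library of this series (3 counts). The mean was 5.16 ± 0.768 CPM in ESCs and 0.279 ± 0.0411 CPM in Eo-, an 18.5-fold difference, with a log2 fold change of -4.20 (SE 0.204). Pooled over libraries, ESCs had 15490 counts and Eo+ had 1, a ratio of 14977 with a 95% interval of 2688 to 591602 that covers counting error only (exact binomial). Eo- had 880 counts, a ratio to Eo+ of 813 (145 to 32136).

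**Figure D2:**
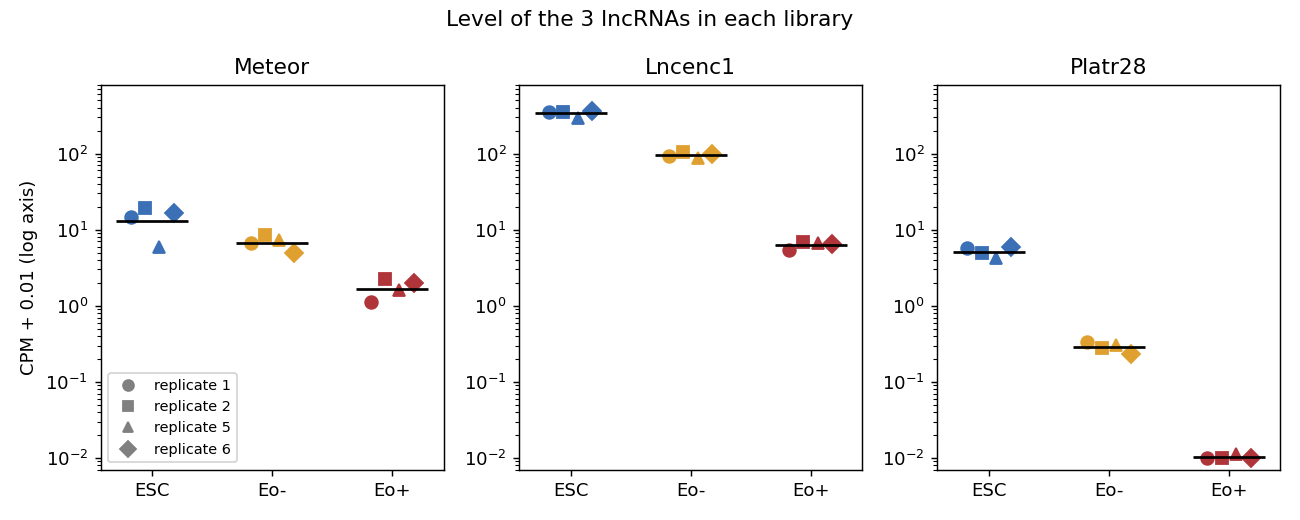
Level of Meteor, Lncenc1 and Platr28 in each of the 12 libraries, as CPM + 0.01 on a log axis, with a symbol for each replicate number and a line at the geometric mean of each group of 4. The groups of Lncenc1 and Platr28 stand apart, ESC replicate 5 of Meteor (5.87 CPM) sits at the level of the Eo- libraries, and Platr28 in Eo+ lies at the added 0.01.

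Per length the order was the same as in CPM. The ESC levels were 19.2 ± 1.91 FPKM for Lncenc1, 1.00 ± 0.412 FPKM for Meteor and 0.468 ± 0.0696 FPKM for Platr28, over exon lengths of 17690, 13950 and 11030 nt. Meteor and Platr28 overlapped in no group of libraries except that ESC replicate 5 of Meteor (0.421 FPKM) lay within the Platr28 range in ESCs (0.379 to 0.532 FPKM). With the longest transcript as the length, the ESC means were 23.2, 1.04 and 0.817 FPKM, in the same order but with Meteor and Platr28 closer together. By mean ESC CPM, Lncenc1 ranked 4, Meteor 62 and Platr28 108 among the 996 annotated lncRNAs.

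The neighbours of each lncRNA were the 3 nearest named loci on each side and every locus overlapping it, 30 loci in all, of which 12 overlapped and 11 passed the filter. Among the 11 were Eomes, the gene of the sort, and Olfml1, which passed the filter through ESCs alone, so that both are left out of the counts that follow. Of the other 9, 6 were called in Eo+ vs ESC (adjusted p of at most 0.05, limma with voom and Benjamini-Hochberg adjustment over all loci), beside 71.9% of all loci tested. All 6 were lower, and 36.1% of all loci were called lower. For Eo- vs ESC 4 were called, all lower, beside 62.2% called and 31.3% called lower over all loci. For Eo+ vs Eo- the count was 7, with 1 higher and 6 lower, beside 47.7% called and 24.6% called lower. The median log2 fold change of the 9 was -1.09 (Eo+ vs ESC), -0.47 (Eo- vs ESC) and -1.09 (Eo+ vs Eo-), beside 0.0024, 0.0153 and -0.0145 over all loci. Over the 22 tested of 62 named loci within 500 kb, with no locus left out, the medians were nearer to those of all loci, at -0.38, -0.22 and -0.073. Of these 22, Eomes and Olfml1 included, 16 were called in Eo+ vs ESC (5 higher, 11 lower), beside 71.9% of all loci. For Eo- vs ESC 14 were called (5 higher, 9 lower), beside 62.2%, and for Eo+ vs Eo- 16 (6 higher, 10 lower), beside 47.7%. The shares called against ESC lie near those of all loci.

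Beside Meteor, Eomes was the nearest PCG and moved the opposite way. The gap between them is measured from the first base of 1 Meteor transcript, at chr9:118439055. The other 13 of 14 transcripts, the annotated one included, start farther from Eomes, at chr9:118406099-118406182. Eomes (chr9:118477475-118488290), 38.4 kb from Meteor on the other strand, stood at 46.5 ± 8.82 CPM in ESCs, 137 ± 22.2 in Eo- and 527 ± 97.0 in Eo+. It ranged from 36.5 to 57.2 CPM in ESCs and from 116 to 168 CPM in Eo-, so those groups did not overlap. The log2 fold change in Eo- vs ESC was 1.56 (SE 0.165, limma adjusted p = 2.99e-06). That in Eo+ vs ESC was 3.51 (SE 0.159) and is given with no test, as the sort fixes it. Golga4, which encodes a golgin of the trans-Golgi network, lay next to Eomes at 60.1 ± 5.11, 54.5 ± 2.90 and 67.0 ± 3.11 CPM and rose in Eo+ vs Eo- by 0.30 (SE 0.0719, limma adjusted p = 0.00378). In Eo+ vs ESC its adjusted p was 0.0588 (limma). Cmc1, a gene of mitochondrial complex IV assembly on the other side, had 20.4 ± 1.74, 16.6 ± 2.48 and 20.3 ± 3.24 CPM and was not called in any comparison, with limma adjusted p of 0.0519 for Eo- vs ESC and 0.0722 for Eo+ vs Eo-, the latter 0.0455 with the replicate number as a block.

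Of the 4 loci overlapping Meteor none passed the filter. The antisense locus XLOC_071767 had 0, 0.00397, 0.00129 and 0.00151 CPM in ESCs, 0.00590 to 0.0167 in Eo- and 0.0957 to 0.178 in Eo+, the reverse order of Meteor with no overlap between groups. Its ESC values are 0 to 3 counts, at or under the floor, and it shared 0 exon bases with Meteor. The other antisense locus, XLOC_071768, which shared 47 exon bases with Meteor, had another order, with 0.0436 ± 0.0273 CPM in ESCs, 0.00910 ± 0.0108 in Eo- and 0.0323 ± 0.0175 in Eo+. XLOC_073716, on the strand of Meteor and also sharing 0 exon bases, ranged over 0.0181 to 0.0384 CPM in ESCs, 0.0242 to 0.0272 in Eo- and 0.0421 to 0.178 in Eo+.

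Around Lncenc1, the tested locus that overlapped it fell in both day 3 groups. XLOC_018602, a non-annotated lncRNA on the same strand (chr13:97484769-97608059) with 0 shared exon bases, had 20.9, 15.5, 14.5 and 10.4 CPM in ESCs, 2.35 to 2.70 in Eo- and 0.0934 to 0.125 in Eo+. Its log2 fold change was -7.12 (SE 0.390, limma adjusted p = 3.56e-09) in Eo+ vs ESC and -2.54 (SE 0.206, limma adjusted p = 3.07e-07) in Eo- vs ESC. Gm8756, on the opposite strand with 0 shared exon bases and of a class that was not tested, stood at 14.7 ± 3.29, 2.62 ± 0.0857 and 0.341 ± 0.0430 CPM. Enc1, the actin-binding ectodermal-neural cortex gene, lay 181.9 kb away and fell less, from 145 ± 14.5 CPM in ESCs to 105 ± 6.03 CPM in Eo- and 68.4 ± 9.87 CPM in Eo+. The log2 fold change of Enc1 was -1.09 (SE 0.0979, limma adjusted p = 2.87e-07) in Eo+ vs ESC and -0.47 (SE 0.0947, limma adjusted p = 0.000691) in Eo- vs ESC.

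On the far sides of Lncenc1, C430039J16Rik had 0.329 ± 0.122 CPM in ESCs and 0.210 ± 0.0290 CPM in Eo-, not called (adjusted p = 0.220, limma), and was at 0 in 3 of 4 Eo+ libraries. It was called lower in Eo+ vs ESC (limma adjusted p = 3.53e-06), with a fitted log2 fold change of -7.50 that depends on those zeros. Gm10260 had 0.423 ± 0.111, 0.445 ± 0.0631 and 0.396 ± 0.109 CPM, and it was not called in any of the 3 comparisons (limma adjusted p of 0.566 to 0.792).

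Around Platr28, Rbmxl2, a germ-cell RNA-binding protein gene, was the highest overlapping locus. The overlap rests on 1 of the 8 Platr28 transcripts, which starts at chr7:107213046. The annotated transcript starts at chr7:107243022 and does not reach Rbmxl2. Rbmxl2 (chr7:107208926-107221962), on the same strand with 0 shared exon bases, had 97.3, 106, 73.9 and 84.4 CPM in ESCs, 15.3 to 24.6 in Eo- and 2.09 to 5.41 in Eo+. It fell by 4.50 on the log2 scale in Eo+ vs ESC (SE 0.256, limma adjusted p = 4.79e-09) and by 2.27 in Eo- vs ESC (SE 0.181, limma adjusted p = 2.66e-07). Nlrp14, an oocyte gene of the NLR family, had 1.92 ± 0.232, 1.28 ± 0.141 and 0.153 ± 0.0586 CPM, and Olfml1, an olfactomedin-like secreted protein gene, had 0.538 ± 0.0798, 0.175 ± 0.0292 and 0.00861 ± 0.00546 CPM. Nlrp14 was called lower in each comparison.

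Syt9, a synaptotagmin gene 60.8 kb from Platr28, took another course. It had 20.1 ± 2.83 CPM in ESCs and 24.3 ± 1.53 CPM in Eo-, not called (limma adjusted p = 0.0882), and fell to 11.6 ± 2.52 CPM in Eo+ (log2 fold change -0.81 vs ESC, SE 0.152, limma adjusted p = 0.000276). Gm3765, antisense to Platr28 with 1049 shared exon bases, had 4.70 ± 0.951, 0.220 ± 0.0384 and 0.0388 ± 0.0206 CPM, close to the levels of Platr28 in ESCs and Eo-. The counting used strand.

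With loci of all classes tested together, 16 of the 30 neighbours, Eomes included, could be tested. Among them Olfml1, Gm3765, XLOC_018603, XLOC_062776 and XLOC_062777 passed the filter through ESCs alone. The counts are thus partly set by the filter and, for Eomes, by the sort, and they are no evidence about the neighbours. Of the 16, 13 passed for Eo+ vs ESC beside 59.5% of all loci. For Eo- vs ESC 11 passed beside 53.9%, and 12 passed for Eo+ vs Eo- beside 36.8%.

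**Figure D3:**
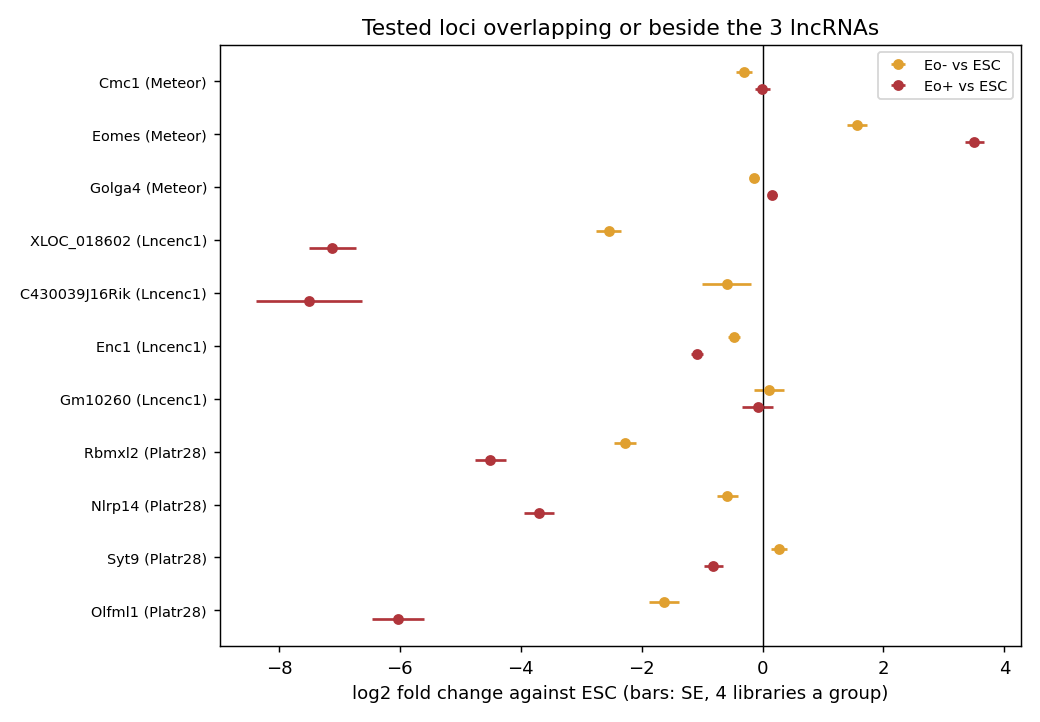
Log2 fold change of the 11 tested neighbours against ESC, in Eo- (yellow) and Eo+ (red), with bars for the SE of the fit over 4 libraries a group and the lncRNA each lies by in parentheses. Eomes lies at 3.51 in Eo+ and 1.56 in Eo-, and C430039J16Rik (-7.50, at 0 in 3 of 4 Eo+ libraries), XLOC_018602, Olfml1 and Rbmxl2 lie far to the left in Eo+.

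The other genes named Platr gave the closest family for comparison. They formed 28 further loci, of which 19 passed the filter and 9 did not. These names were given for expression in ESCs, so the list is not independent evidence of a direction, and 2 of the 19, Platr6 and Platr29, passed the filter through ESCs alone and are left out of the counts. Of the other 17, 15 were lower for Eo+ vs ESC beside 36.1% of all loci tested. The count was also 15 for Eo- vs ESC, beside 31.3%, and for Eo+ vs Eo-, beside 24.6%. In 15 of the 17, every ESC library lay above every Eo- library and every Eo- library above every Eo+ library, an order held by 10.9% of all loci tested.

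Platr10 was the most abundant of the unjoined Platr loci, at 138 ± 13.7 CPM in ESCs, 77.9 ± 12.6 in Eo- and 9.005 ± 4.75 in Eo+ (log2 fold change -4.06, SE 0.229, limma adjusted p = 4.40e-09, Eo+ vs ESC). Platr14 stood at 95.6 ± 5.47, 37.2 ± 3.75 and 9.71 ± 2.99 CPM. Platr7 fell in Eo+ vs ESC from 16.5 ± 2.72 CPM in ESCs through 3.18 ± 0.610 CPM in Eo- to 0.0611 ± 0.0555 CPM in Eo+ (log2 fold change -8.44, SE 0.469). Platr29, with 0.195 ± 0.0268 CPM in ESCs, had 0 counts in all 4 Eo+ libraries, as Platr28 had in 3 of 4, so its fold is only bounded. Platr6 was lower by a log2 fold change of -5.18 in Eo- vs ESC (SE 0.441) and, unlike the other unjoined loci, was not called in Eo+ vs Eo- (limma adjusted p = 0.200).

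The assembly had joined 6 of the 19 with other genes, and 4 of these 6 were lower than ESC in both groups, as were all 13 unjoined loci, Platr6 and Platr29 included. The exceptions among the joined loci were Platr12 and Platr25. Platr12 shared its locus with Zdbf2, an imprinted PCG, and rose from 75.4 ± 4.11 CPM in ESCs to 95.9 ± 9.04 CPM in Eo- and 161 ± 23.5 CPM in Eo+. Platr25, joined with E430024I08Rik, was not called in any comparison (limma adjusted p of 0.557 to 0.815). In a joined locus the reads of the lncRNA and of the other gene cannot be told apart.

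**Figure D4:**
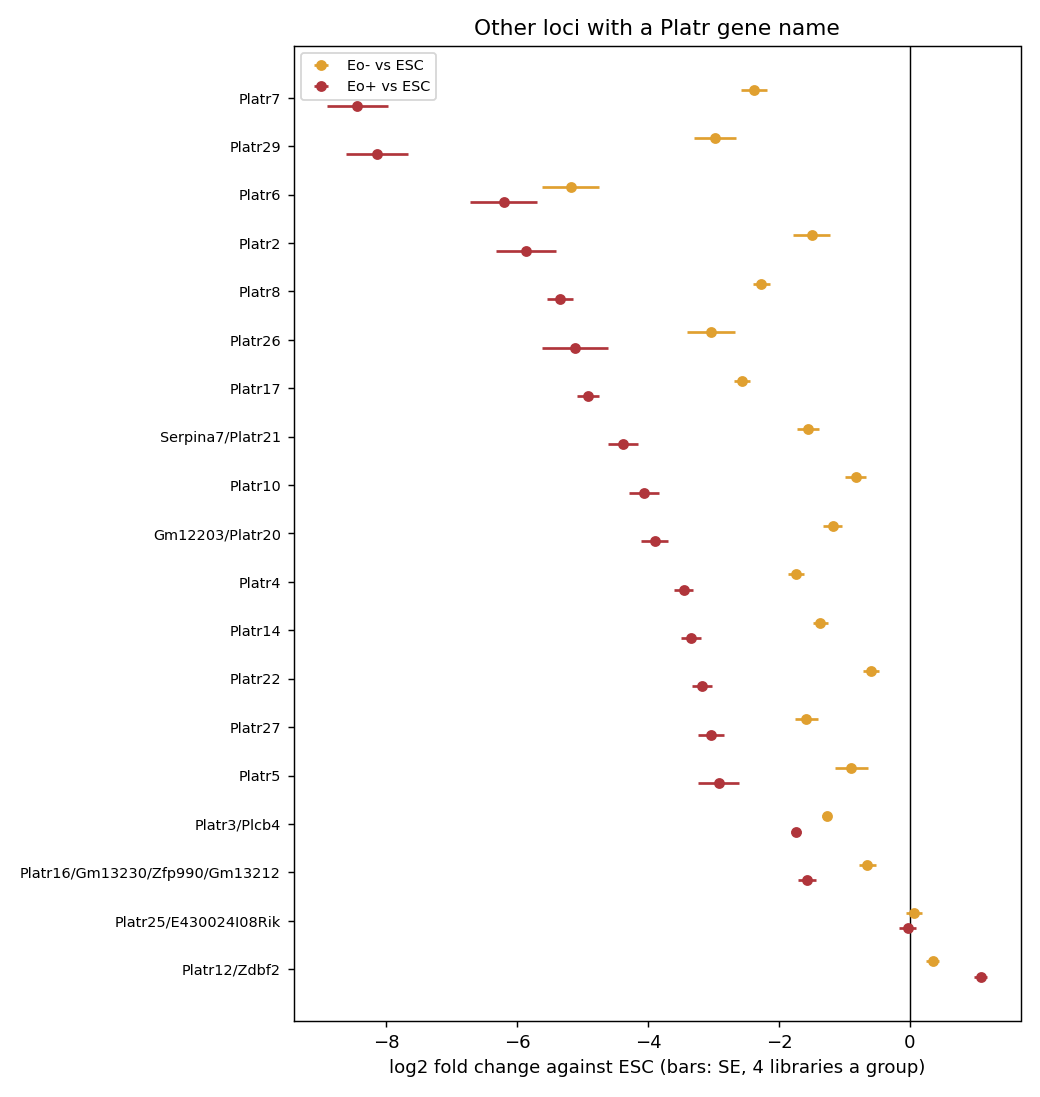
Log2 fold change against ESC of the 19 tested loci with another Platr name, in Eo- (yellow) and Eo+ (red), ordered by the change in Eo+, with bars for the SE over 4 libraries a group. The fitted changes in Eo+ run from -8.44 (Platr7) to 1.08 (Platr12/Zdbf2). Platr6 and Platr29 passed the filter through ESCs alone. Of the other 17, 15 were called lower than ESC in Eo+, beside 36.1% of all loci tested, and 15 in Eo-, beside 31.3%.

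The named loci whose profile came nearest to each lncRNA were found by the root mean square difference of centred log2(CPM + 0.01) over the 12 libraries, among 13361 tested named loci with at least 1 CPM in the highest group. For Meteor they were Aldh3b1 (difference 0.291), Gpat2 (0.326), Mcmdc2 (0.334), Srrm4os (0.373) and Cpne9 (0.373). Gpat2, a mitochondrial acyltransferase gene, had 9.71 ± 2.66, 5.08 ± 1.22 and 1.35 ± 0.155 CPM in ESCs, Eo- and Eo+. For Lncenc1 they were the joined locus 2410141K09Rik/Zfp640 (0.228), Hsf2bp (0.247), Nlrp4f (0.248), Tex14 (0.250) and Rex2 (0.262). Hsf2bp and Tex14 are known for their roles in germ cells, and Hsf2bp had 62.6 ± 10.5, 12.1 ± 1.62 and 0.978 ± 0.193 CPM.

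For Platr28 the nearest were 1700029P11Rik (0.339), Nr0b1 (0.350), 1700061G19Rik (0.407), Accsl (0.413) and Gm26954 (0.458). With Platr28 at 0 in 3 of 4 Eo+ libraries this order depends on the added 0.01 CPM, and 0 of the 5 remained nearest with 0.1 CPM added. Nr0b1, an orphan nuclear receptor gene of the pluripotency network, had 96.0 ± 21.8 CPM in ESCs, 7.57 ± 1.41 in Eo- and 0.235 ± 0.0758 in Eo+. These loci were selected for their likeness, so no test is given.

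The pluripotency factors set the scale of these changes. Of 16, 15 were lower than in ESCs in Eo+ and likewise 15 in Eo-, beside 36.1% and 31.3% of all loci, with median log2 fold changes of -4.97 and -2.97. Pou5f1, the core factor Oct4, had 514 ± 135 CPM left in Eo+ of 1247 ± 187 CPM in ESCs. Nanog, another core factor, had 461 ± 99.8 CPM in ESCs, 170 ± 9.66 in Eo- and 119 ± 38.5 in Eo+. Zfp42, the naive-state factor Rex1, went from 503 ± 70.1 CPM in ESCs through 42.7 ± 7.36 CPM in Eo- to 4.36 ± 0.438 CPM in Eo+. Of the mesendoderm factors, all 11 besides Eomes were higher in Eo+ than in ESCs, beside 35.8% of all loci, among them T at 620 ± 141 CPM against 106 ± 64.5 CPM.

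Of 9 other lncRNAs known from ESCs or from many tissues, 4 were lower and 2 higher in Eo+ vs ESC, so 6 of 9 were called beside 71.9% of all loci, a share near the background. In Eo- vs ESC 3 were lower and 5 higher, so 8 of 9 were called beside 62.2%. For Eo+ vs Eo- 4 were called (1 higher, 3 lower) beside 47.7%. Halr1, a lncRNA beside the Hoxa cluster, fell from 47.2 ± 17.3 CPM in ESCs to 0.294 ± 0.123 CPM in Eo+ (log2 fold change -7.32, SE 0.524, limma adjusted p = 3.64e-08). Evx1os, antisense to the streak factor gene Evx1, rose from 1.61 ± 1.33 CPM to 52.1 ± 20.6 CPM. Gas5, a growth-arrest lncRNA that hosts small nucleolar RNAs, had 544 ± 27.0, 636 ± 71.6 and 598 ± 53.8 CPM and was not called in Eo+ vs ESC (limma adjusted p = 0.166). Malat1, a nuclear lncRNA of most tissues, had 176 ± 15.1, 181 ± 32.004 and 137 ± 39.5 CPM and was not called either (limma adjusted p = 0.0533). Miat was lower in Eo+ (0.876 ± 0.734 CPM) but higher in Eo- (14.7 ± 3.17 CPM) than in ESCs (4.39 ± 0.783 CPM), an order that none of the 3 lncRNAs had.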

How the data were processed

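Poly(A) RNA of 12 libraries was sequenced in pairs of 100 nt reads. The authors mapped reads to mm10 with STAR (2.0.4 in the submitters' processing notes), assembled transcripts with Cufflinks and Cuffmerge 2.2.1 and deposited raw strand-specific counts per locus from HTSeq 0.6.1. A second deposited table of CPM was not used. Multiply mapped reads, 22.4% to 26.2% of each library's tally, were not counted. Counts were scaled by TMM over the loci tested (edgeR 4.0.16) and fitted with voom and limma 3.58.1 in R 4.3.3, with 1 mean per group and calls at an adjusted p of 0.05. Classes came from GENCODE M21, in which 97.6% of the named transcripts were found.

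The 3 lncRNAs and all lists were chosen with earlier results of these data known. TMM was first computed over every counted locus, and the FPKM filter was first run with TMM-scaled library sizes (17977 loci). Both settings were replaced after their values had been seen and compared with an earlier analysis of these data. The settings used are TMM over filtered loci and FPKM from library totals, and the replaced ones are given as alternatives. For these libraries the study's methods name an FPKM filter and voom and no TMM step, and voom with library totals is another alternative.

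Named loci were the neighbours, other Platr loci, the 5 nearest profiles and the most abundant genes of the pluripotency, mesendoderm and other lncRNA lists (the other marker lists are given as sums), with Halr1, Evx1os and Miat added after their values were seen. That same-numbered libraries share a differentiation set is not stated. Their deviations from group means correlated by 0.258 to 0.572 between Eo- and Eo+, over 0.1 in all 4 pairs, which meets the bar for pairing, and by -0.107 to 0.253 between ESC and Eo- and -0.0781 to 0.119 between ESC and Eo+. The fit described above has no pairing term, and the fit with the replicate number as a block is an alternative, printed in the results where it changes a call in Eo+ vs Eo-. Alternatives were edgeR's quasi-likelihood test, DESeq2 1.42.0, other scalings, filters and classes, a replicate block and leaving out each library.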

Additional observations from a re-analysis of the deposited data

Results flagged for a closer look

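In 143 groups of 4 libraries over 48 loci, 6 had 1 library whose gap to the others took most of the group's range, and chance gives about 1 in 20. Platr28 in Eo+ replicate 5 had 0.00141 CPM, a single count, where the other 3 libraries had 0. C430039J16Rik had 0.0281 CPM in Eo+ replicate 5 and 0 in the others. Platr5 had 6.90 CPM in ESC replicate 6 against 3.31 to 3.75 CPM. Platr7 had 4.09 CPM in Eo- replicate 2 against 2.78 to 2.95 CPM. Platr10 had 96.7 CPM in Eo- replicate 5 against 70.1 to 72.7 CPM. The joined locus 2410141K09Rik/Zfp640 had 24.5 CPM in ESC replicate 5 against 31.3 to 32.3 CPM.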

How the results depend on the processing

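All changes of the 3 lncRNAs kept their direction under every alternative run. The change of Platr28 rests on 1 count in Eo+ and moved most. In Eo+ vs ESC it was -13.31 by edgeR's quasi-likelihood test, -13.64 by DESeq2 and -12.87 to -12.29 with 1 library left out. In Eo+ vs Eo- it was -9.10, -9.38 and -8.66 to -8.09.

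Counts of calls moved with filters, classes and thresholds. With no expression or class filter they were 33869, 27934 and 14930 loci in Eo+ vs ESC, Eo- vs ESC and Eo+ vs Eo-, and with a change of at least 2-fold 6832, 5071 and 3789. Neighbours called, with Eomes and Olfml1 included, were 8, 6 and 9 in the fit of the report, 18, 15 and 14 with no filter, 16, 14 and 16 among all named loci within 500 kb, and 13 and 11 with all classes in the first 2 comparisons. Leaving out 1 library gave 12361 to 12874, 10275 to 11309 and 7442 to 8844 calls. With the replicate block 13404, 11841 and 9554 loci were called, and among neighbours and Platr loci it changed the calls of Cmc1 (limma adjusted p = 0.0455 in Eo+ vs Eo-, and 0.0391 for Eo- vs ESC) and Golga4 (0.0314 in Eo+ vs ESC) alone. For ESCs the pairing is not shown, since 4 of 8 libraries correlated best with their own number against Eo- and 4 of 8 against Eo+, whereas 8 of 8 did between Eo- and Eo+. With TMM over every counted locus 12635, 10809 and 8044 loci were called, and with the TMM-scaled FPKM filter 12935, 11222 and 8563. These 2 settings were run first, and those used in their place were chosen after seeing the data. Under TMM over every counted locus Cmc1 was called in Eo- vs ESC (limma adjusted p = 0.0252).

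Signs turned for 3 loci in comparisons where they were not called. Cmc1 in Eo+ vs ESC was 0.035 with library totals, 0.0045 with the block and -0.0917 to 0.067 with 1 library left out. With 1 library left out Gm10260 was -0.26 to 0.046 in Eo+ vs ESC and -0.038 to 0.23 in Eo- vs ESC. Platr25/E430024I08Rik was 0.0070 in Eo+ vs ESC with library totals, and with 1 library left out -0.11 to 0.051 there and -0.012 to 0.15 in Eo- vs ESC. Calls were gained in 19 alternatives, for Cmc1, Golga4 and Syt9, among them Golga4 in Eo+ vs ESC without ESC replicate 1 (adjusted p = 0.0247, limma) and Cmc1 in Eo- vs ESC without Eo- replicate 5 (adjusted p = 0.0181, limma). Calls of the loci selected for their likeness are not given. Of the nearest profiles to Meteor, Lncenc1 and Platr28, 2, 2 and 0 of 5 were shared with a pseudocount of 0.1 CPM and 2, 3 and 3 with group means.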
